A study of Mus musculus with 16 samples.

Results

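The 9 genes *C1qa*, *C1qb*, *C1qc*, *C3*, *C4b*, *Serping1*, *C3ar1*, *C5ar1* and *Cd59a* of the complement system were followed through RNA sequencing of mouse brain. They were chosen by name as complement components and regulators, with earlier results of these data known, and all 9 were found among the 39179 gene identifiers of the deposited count table. The study compared wild-type mice with mice homozygous for the knock-in mutation V338Y in *Mrps5* (*MRPS5* in the labels), which encodes a small-subunit protein of the mitochondrial ribosome, at 3 and at 19 months of age. There were 4 mice in each of the 4 groups, 16 in all, and the labels name no treatment. The mutation was carried in the germline, and so in every cell, in both V338Y groups.

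Complement is a cascade of plasma and tissue proteins that marks surfaces for removal. The classical pathway starts when C1q binds a target and its proteases cleave C4 and C2, the alternative pathway amplifies the deposition of C3 fragments, and both lead to the membrane attack complex, while soluble and membrane-bound inhibitors hold the cascade in check. In the brain, microglia are known as the main source of C1q, astrocytes are a known source of C4 and C3, and C1q and C3 take part in the removal of synapses during development.

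The promoter sequences of the members that share a genomic cluster, the member with the largest change with age and the member that differed between the genotypes at both ages are shown first, since the results below turn on these genes. *C1qb*, *C1qc* and *C1qa* lie next to each other on the minus strand of chromosome 4, within 18.7 kb (GRCm38, chr4:136880129-136898803). *C3* lies on the minus strand of chromosome 17 (chr17:57203970-57228136) and *Cd59a* on the plus strand of chromosome 2 (chr2:104095801-104115354). Each sequence runs from 250 bases before to 50 bases after the RefSeq start of the gene (GRCm38.p6), 5′ to 3′ on the strand of the gene. Capitals mark matches to 4 motifs that were searched on both strands, namely the PU box GAGGAA, a C/EBP-type motif TTNNGCAA, a GAS-type motif TTCNNNGAA and an ISRE-type motif GAAANNGAA.
C1qb, chr4:136886151-136886450, minus strand: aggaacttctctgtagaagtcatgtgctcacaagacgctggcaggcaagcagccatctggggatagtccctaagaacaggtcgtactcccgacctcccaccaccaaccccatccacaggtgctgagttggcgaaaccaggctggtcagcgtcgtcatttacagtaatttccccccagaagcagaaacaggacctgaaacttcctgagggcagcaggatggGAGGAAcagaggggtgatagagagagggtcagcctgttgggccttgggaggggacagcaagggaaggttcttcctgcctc
C1qc, chr4:136892865-136893164, minus strand: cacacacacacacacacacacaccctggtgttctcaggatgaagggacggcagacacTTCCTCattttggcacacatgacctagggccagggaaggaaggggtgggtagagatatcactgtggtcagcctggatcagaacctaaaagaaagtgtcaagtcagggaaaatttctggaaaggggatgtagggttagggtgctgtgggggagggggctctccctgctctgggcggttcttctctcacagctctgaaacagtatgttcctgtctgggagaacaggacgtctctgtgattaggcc
C3, chr17:57228087-57228386, minus strand: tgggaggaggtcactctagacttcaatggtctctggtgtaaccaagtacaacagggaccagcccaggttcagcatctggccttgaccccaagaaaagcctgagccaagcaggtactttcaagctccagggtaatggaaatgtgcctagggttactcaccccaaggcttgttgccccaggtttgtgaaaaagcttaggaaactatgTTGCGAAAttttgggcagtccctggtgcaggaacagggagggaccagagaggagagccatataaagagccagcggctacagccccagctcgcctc
Cd59a, chr2:104095551-104095850, plus strand: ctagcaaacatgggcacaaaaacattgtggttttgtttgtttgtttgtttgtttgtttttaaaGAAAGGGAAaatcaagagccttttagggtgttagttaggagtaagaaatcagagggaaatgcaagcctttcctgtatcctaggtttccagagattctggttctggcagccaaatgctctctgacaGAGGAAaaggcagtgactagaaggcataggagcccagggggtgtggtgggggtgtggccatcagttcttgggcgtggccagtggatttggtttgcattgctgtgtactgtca

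A PU box began 30 bases before the start of *C1qb* and, on the other strand, 193 bases before that of *C1qc*. A C/EBP-type match lay 45 bases before the start of *C3*, on the other strand, and *Cd59a* held a PU box at 62 and an ISRE-type match at 187 bases before its start. Of the other members in the table, *C5ar1* held an ISRE-type match on the other strand 66 bases before its start and *C3ar1* held no match to the 4 motifs. Such matches are common, as 28.3% of 32851 promoters of the same length held the PU box, 10.8% the C/EBP-type, 8.56% the ISRE-type and 8.30% the GAS-type motif, so they describe letters and not sites in use. *C1qa*, *C4b* and *Serping1* had no entry.

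Total counts were between 6181448 and 19601664 per mouse. *Mrps5* itself was at 37.7 to 40.6 CPM (counts scaled to a common library total) in wild-type and 35.5 to 41.8 CPM in V338Y mice at 3 months, and at 27.3 to 31.6 and 28.6 to 31.4 CPM at 19 months, so its level did not separate the genotypes; the point mutation cannot be seen in gene counts. Markers went against the description of the mice and of the tissue in the methods of the study, which are all-female groups and cortex. All 8 mice of 3 months had between 2019 and 4809 counts of 4 Y-linked genes and 5 to 20 counts of *Xist*, whereas all 8 mice of 19 months had 0 and between 6331 and 14860, so age and sex cannot be told apart here, while each genotype comparison was within 1 sex. Cerebellum markers summed to between 528 and 1560 CPM in 7 of the mice of 3 months, and to 78.0 CPM in V338Y mouse 14 of that age and 72.1 to 91.2 CPM in the mice of 19 months. Cortex markers summed to between 224 and 318 CPM in all mice. In such bulk tissue, a change in the number of cells of a type and a change of RNA per cell cannot be told apart.

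With age, all 9 complement genes rose in both genotypes. A gene is called here when its adjusted p is under 0.05 in the quasi-likelihood test of edgeR, adjusted after Benjamini and Hochberg over the genes tested. In wild-type mice 9 of 9 members were called higher at 19 months, beside 31.4% of all 16101 genes tested, and 8 of them were called and at least 2-fold higher, beside 9.71% of all genes. In V338Y mice 9 of 9 were called higher, beside 23.1% of 16770 genes, and all 9 were also at least 2-fold higher, beside 8.11%. The median log2 fold change of the members was 1.95 and 1.53, against -0.005 and -0.03 for all genes tested, in wild-type and V338Y mice. The count filter needs 10 counts in 50% or more of the mice of either group. *C5ar1* in both genotypes and *C3ar1* in wild-type mice reached it only at 19 months, where they were high, so they could enter the test only with a difference in counts. Among the members that also reached it at 3 months, 7 of 7 and 8 of 8 were called higher in wild-type and V338Y mice, with a median of 1.37 and 1.42, beside 29.6% and 21.7% of all genes of that kind.

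**Figure D1:**
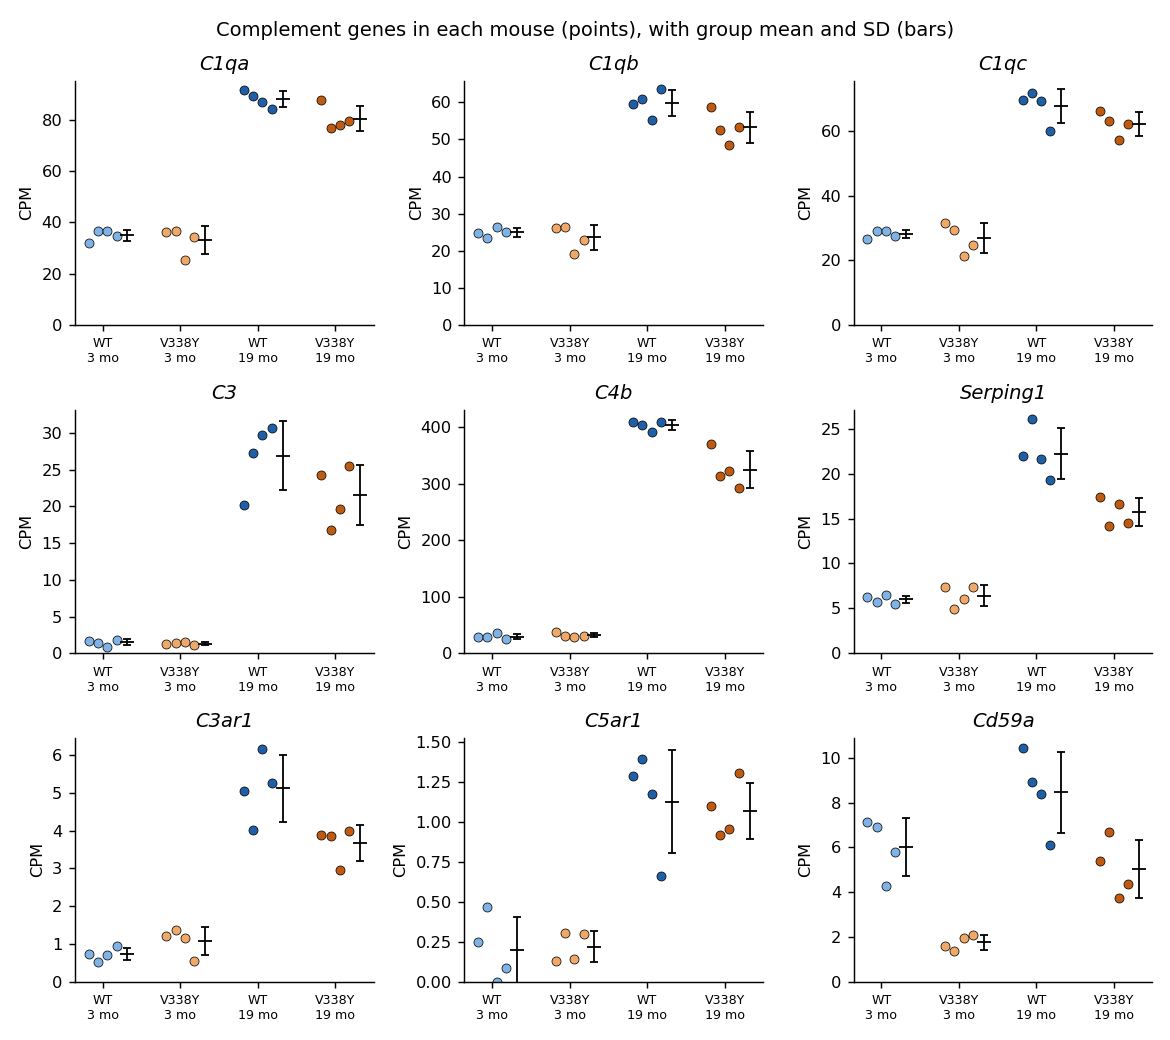
Level of each of the 9 complement genes in CPM (linear axis from 0) in every mouse, with one point per mouse and the group mean and SD (n = 4) beside the points; the SD of C5ar1 in wild-type mice of 3 months is cut at 0. The mice of 19 months lie above those of 3 months in all panels except that of Cd59a, where the wild-type groups overlap and the V338Y mice of 3 months lie lowest.

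C1q is made of 3 chains, encoded by *C1qa*, *C1qb* and *C1qc*, and recognises the targets of the classical pathway. *C1qa* was at 31.9, 36.6, 36.5 and 34.7 CPM in wild-type and 36.3, 36.7, 25.1 and 34.3 CPM in V338Y mice of 3 months, and at 91.7, 89.3, 86.9 and 84.1 CPM and 87.6, 76.6, 77.8 and 79.6 CPM in the respective mice of 19 months. The ages did not overlap, and V338Y mouse 15 was the lowest of the mice of 3 months for each of the 3 chains. The change with age of *C1qa* was 2.58-fold in wild-type (log2 1.37 ± 0.06 SE, adjusted p = 3.33e-19) and 2.43-fold in V338Y mice (log2 1.28 ± 0.10, adjusted p = 2.18e-06, edgeR, n = 4 per group).

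*C1qb* rose from between 23.4 and 26.4 CPM to between 55.2 and 63.5 CPM in wild-type mice, and from between 19.1 and 26.3 CPM to between 48.6 and 58.7 CPM in V338Y mice. *C1qc* went from 26.5 to 29.2 CPM to a range of 60.2 to 71.9 CPM in wild-type mice, and from 21.2 to 31.7 CPM to 57.3 to 66.5 CPM in V338Y mice. The changes were close to that of *C1qa*, with log2 fold changes of 1.30 and 1.18 for *C1qb* and 1.31 and 1.22 for *C1qc* in wild-type and V338Y mice. The proportions of the chains, taken per kb of exon, stayed close. Their group means were 47.2% to 48.8% for *C1qa*, 30.9% to 32.2% for *C1qb* and 20.1% to 20.6% for *C1qc*. The mice of the ages overlapped in each share, other than that of *C1qb* in V338Y mice, which was 31.5% to 33.3% at 3 months and 29.9% to 31.3% at 19 months. The 3 transcripts share no stretch of 50 bases, so such a stretch is found in only 1 of them.

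C4, cleaved by the C1 proteases, forms part of the enzyme that cleaves C3, and C3 is where all the pathways of the cascade meet. *C4b* was at 29.6, 28.5, 35.0 and 25.5 CPM in wild-type and 37.1, 30.6, 28.9 and 29.9 CPM in V338Y mice of 3 months, and at 410.0, 403, 391 and 409.6 CPM in wild-type and 370.3, 314, 324 and 293 CPM in V338Y mice of 19 months. The old mice lay far above the young ones in both genotypes, and the old V338Y mice all lay below the old wild-type mice. The increase with age was 14.01-fold in wild-type (log2 3.81 ± 0.06 SE, adjusted p = 1.63e-25) and 10.3-fold in V338Y mice (log2 3.37 ± 0.10, adjusted p = 3.71e-10, edgeR), and *C4b* ranked 51 of 16101 and 60 of 16770 genes by log2 fold change.

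*C3* was at 1.72, 1.46, 0.895 and 1.81 CPM in wild-type and 1.21, 1.42, 1.59 and 1.07 CPM in V338Y mice of 3 months, and at 20.1, 27.2, 29.7 and 30.6 CPM and 24.3, 16.8, 19.6 and 25.5 CPM at 19 months. It had the largest fold change with age among the members, 18.5-fold in wild-type (log2 4.21 ± 0.18 SE, adjusted p = 1.23e-13) and 16.2-fold in V338Y mice (log2 4.02 ± 0.17, adjusted p = 3.17e-09, edgeR). By log2 fold change it ranked 34 and 37 among all genes tested.

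A close copy of *C4b*, *C4a*, lies on the same strand 65.2 kb away (GRCm38, chr17:34809092-34823464). It was at 1.02 to 2.60 CPM in all mice and was not called with age (log2 -0.11 ± 0.25 SE, adjusted p = 0.72 in wild-type; 0.05 ± 0.24, adjusted p = 0.874 in V338Y mice, edgeR). Of the 50-base windows of the *C4b* transcripts, 34.6% are also found in *C4a*, so the split between them depends on how the reads were assigned. *C4b* took 93.7% ± 1.11 and 94.8% ± 1.72 of their joint counts in wild-type and V338Y mice at 3 months, and 99.6% ± 0.0821 and 99.5% ± 0.0785 at 19 months (SD, n = 4).

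Both inhibitors among the members rose as well. *Serping1* encodes the C1 inhibitor, a soluble protein that inactivates the proteases of the C1 complex. It was at 6.27, 5.72, 6.44 and 5.52 CPM in wild-type and 7.35, 4.92, 6.02 and 7.33 CPM in V338Y mice of 3 months, against 22.0, 26.1, 21.6 and 19.3 CPM and 17.4, 14.2, 16.7 and 14.5 CPM at 19 months. The ages did not overlap in either genotype, and the increase was 3.87-fold in wild-type (log2 1.95 ± 0.11 SE, adjusted p = 6.78e-16) and 2.47-fold in V338Y mice (log2 1.30 ± 0.13, adjusted p = 6.52e-06, edgeR).

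*Cd59a* encodes a membrane-anchored protein that blocks the assembly of the membrane attack complex. It was at 7.13, 6.92, 4.30 and 5.78 CPM in wild-type and only 1.60, 1.37, 1.96 and 2.09 CPM in V338Y mice of 3 months, and at 10.4, 8.91, 8.41 and 6.09 CPM in wild-type and 5.37, 6.67, 3.76 and 4.35 CPM in V338Y mice of 19 months. In wild-type mice the ages overlapped and the change was the smallest of the members, 1.48-fold (log2 0.57 ± 0.16 SE, adjusted p = 0.00245). In V338Y mice the ages did not overlap and the increase was 2.88-fold (log2 1.53 ± 0.22, adjusted p = 1.16e-04, edgeR).

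The receptors of the small fragments released from C3 and C5 also rose, at low counts. *C3ar1*, the receptor of C3a, was at 0.737, 0.532, 0.716 and 0.949 CPM in wild-type and 1.21, 1.37, 1.16 and 0.536 CPM in V338Y mice of 3 months, and at 5.06, 4.01, 6.17 and 5.27 CPM and 3.88, 3.86, 2.96 and 3.98 CPM at 19 months. The ages did not overlap, and the fold change was 7.12 in wild-type (log2 2.83 ± 0.25 SE, adjusted p = 1.86e-11) and 3.40 in V338Y mice (log2 1.77 ± 0.24, adjusted p = 7.99e-05, edgeR). *C5ar1*, a receptor of C5a, had 2, 7, 0 and 1 counts in wild-type and 2, 6, 2 and 5 counts in V338Y mice of 3 months, and 16, 17, 11 and 4 counts and 11, 14, 18 and 21 counts at 19 months. In CPM the ages did not overlap, and the log2 fold change was 2.43 ± 0.49 SE in wild-type (adjusted p = 8.02e-05) and 2.20 ± 0.35 in V338Y mice (adjusted p = 2.49e-04, edgeR), but counts this low fix its size only loosely, as it ranged from 2.04 to 3.48 in wild-type mice when each mouse was left out in turn.

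**Figure D2:**
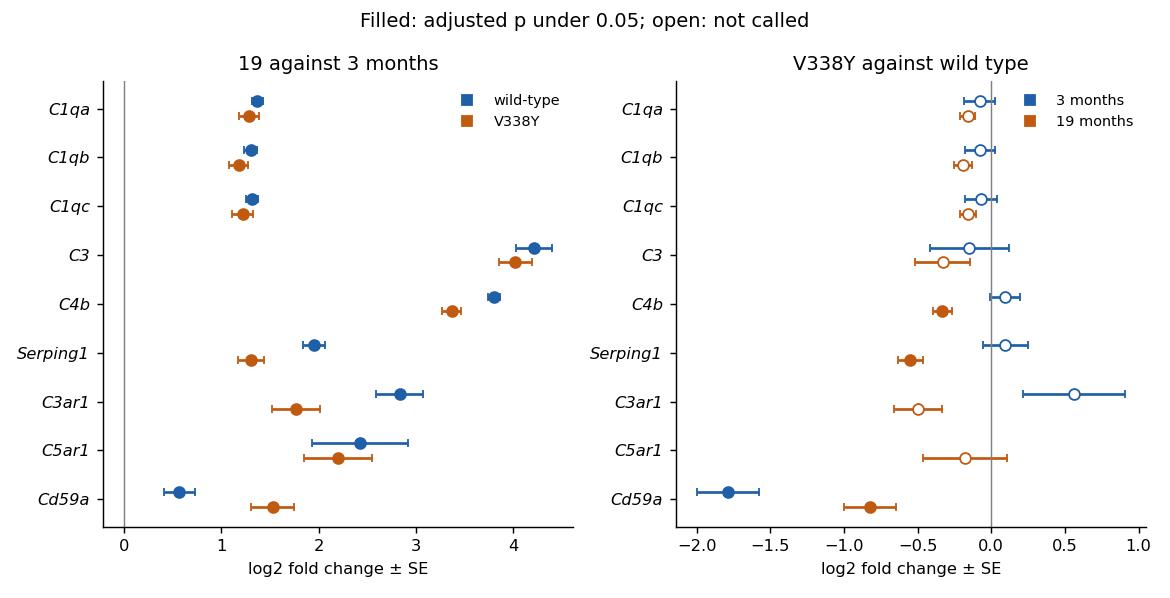
Log2 fold change (± SE) of each member between the ages (left, 19 against 3 months, in wild-type and V338Y mice) and between the genotypes (right, V338Y against wild type, at 3 and 19 months); filled points have an adjusted p under 0.05 and C5ar1 was not tested at 3 months. All points on the left are filled and above 0, whereas on the right only Cd59a (both ages), C4b and Serping1 (19 months) are filled, all below 0.

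The order of the members by level, in CPM per kb of exon, differed between the ages in the places of *C4b*, *Cd59a*, *Serping1* and *C3*. In wild-type mice of 3 months it was *C1qa* (33.6), *C1qb* (22.9), *C1qc* (14.6), *C4b* (5.20), *Cd59a* (3.33), *Serping1* (2.58), *C3* (0.286), *C3ar1* (0.170) and *C5ar1* (0.0776). *Cd59a* and *Serping1*, *C3* and *C3ar1*, and *C3ar1* and *C5ar1* overlapped between neighbours in that order. The V338Y mice of 3 months had the same order except that *Cd59a* (0.968) came sixth, behind *Serping1* (2.75). In wild-type mice of 19 months, *C4b* (70.9) was second to *C1qa* (84.6) and ahead of *C1qb* (55.0) and *C1qc* (35.2), followed by *Serping1* (9.56), *C3* (5.23), *Cd59a* (4.67), *C3ar1* (1.19) and *C5ar1* (0.438), with *C3* and *Cd59a* overlapping. The V338Y mice of 19 months had the same order, and there *C4b* (57.1) overlapped with *C1qb* (49.0) as did *C3* with *Cd59a*.

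Other genes of the pathway were called higher as well, though not all that were tested. Lists by role held 57 complement genes, the members included, of which 33 passed the count filter in wild-type and 35 in V338Y mice. Of these, 26 and 24 were called higher, beside 31.4% and 23.1% of all genes tested, and 0 lower, beside 31.5% and 25.7%. In each genotype 20 were also at least 2-fold higher, beside 9.71% and 8.11% of all genes. The median log2 fold change was 1.31 and 1.22. Outside the 9 members, 17 of 24 and 15 of 26 were called higher. Of all those tested, 6 in each genotype passed the filter only through the mice of 19 months. Among the others, 20 of 27 and 20 of 29 were called higher, and 13 of 20 and 12 of 21 outside the members. For all genes that reached the filter at 3 months the share was 29.6% and 21.7%. By role, 7 of 8 classical pathway genes, 4 of 4 soluble regulators and 2 of 3 genes of C3 and the alternative pathway were called higher in either genotype. The same held for 6 of 8 and 4 of 8 membrane regulators and for 6 of 6 and 6 of 7 receptors, in wild-type and V338Y mice. Several of these receptors passed the filter only through the mice of 19 months. Among them were *C3ar1* in wild-type mice and *C5ar1* and *Itgax* in both genotypes. A called gene of the alternative pathway also did so in both. Such genes could enter the test only with a difference in counts. The lectin pathway had 1 of 3 and the terminal pathway 0 of 1 and 0 of 2 genes called, too few to set beside the share of all genes. The other genes of the lists did not reach the filter, most of the terminal components among them.

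**Figure D3:**
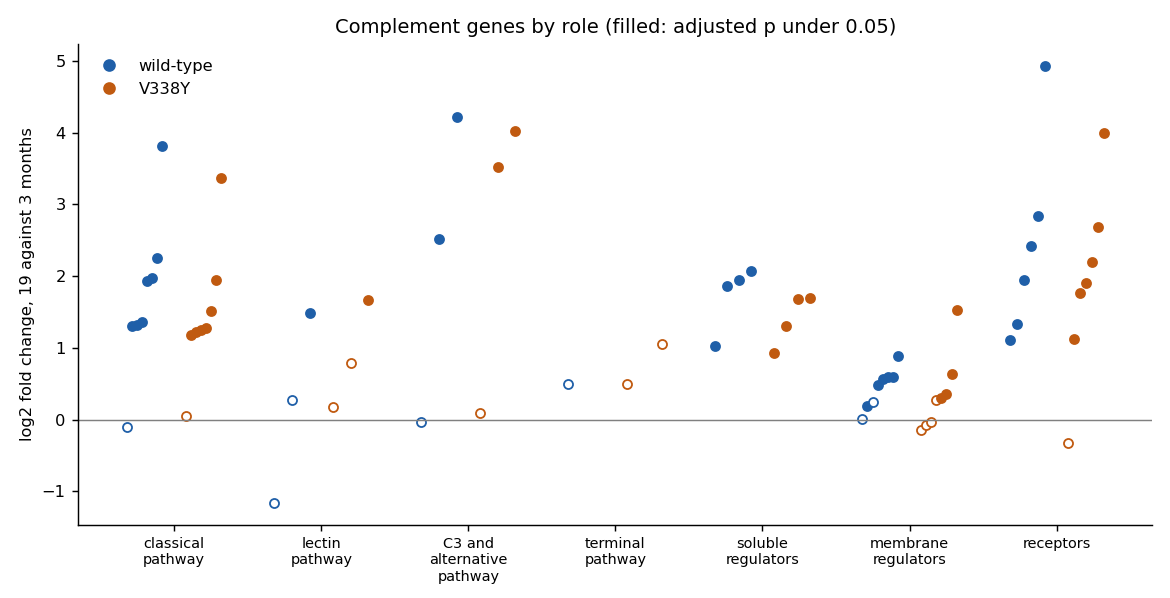
Log2 fold change with age of each tested complement gene, one point per gene, grouped by role (wild-type mice on the left and V338Y mice on the right of each group); filled points have an adjusted p under 0.05. Classical pathway genes, soluble regulators and receptors are nearly all filled and above 0, the filled membrane regulators lie closer to 0, and no filled point is below 0.

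Among the genes outside the 9 members, the largest change was that of *Itgax*, the alpha chain of complement receptor 4, which binds C3 fragments. It had 1 to 5 counts in the mice of 3 months and 36 to 76 counts in those of 19 months (log2 4.93 ± 0.28 SE in wild-type, adjusted p = 8.59e-16; 3.99 ± 0.28 in V338Y mice, adjusted p = 2.28e-07, edgeR). It passed the count filter only through the mice of 19 months, so the size of its change is loosely fixed. *Itgb2*, the beta chain it shares with complement receptor 3, rose 3.86-fold and 3.73-fold, and *Itgam*, the alpha chain of receptor 3, rose 2.17-fold and 2.19-fold.

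*C2* and *C1ra*, proteases of the classical pathway, rose 3.92-fold and 3.83-fold in wild-type and 2.38-fold and 2.85-fold in V338Y mice. Of the 50-base windows of the *C1ra* transcripts, 48.0% are also found in a close copy, *C1rb*, which had 0 counts in all 16 mice, so the counts of *C1ra* depend on how shared reads were assigned. *Vtn* and *Clu*, soluble inhibitors of the membrane attack complex, rose 3.63-fold and 2.03-fold in wild-type and 3.22-fold and 1.91-fold in V338Y mice. *Vtn* is also one of the pericyte markers given next.

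Markers of several cell types moved with age beside the complement genes. In wild-type and V338Y mice, the median log2 fold change was 0.89 and 0.73 for 15 microglia markers (15 of 15 called higher in both), 1.81 and 1.68 for 7 border macrophage markers (7 and 5 called higher), and 0.79 and 0.75 for 10 astrocyte markers (8 called higher in both). It was 2.31 and 2.27 for 10 endothelial (10 of 10 called higher in both), 2.02 and 1.90 for 7 pericyte (7 of 7), 1.61 and 1.23 for 9 meningeal fibroblast (9 of 9) and 1.79 and 1.22 for 5 blood markers (5 of 5). The microglia markers summed to between 282 and 382 CPM at 3 months and between 556 and 642 CPM at 19 months, and the border macrophage markers to 14.2 to 20.4 and 46.4 to 64.8 CPM. The neutrophil markers summed to at most 6.74 CPM at 3 months, with *Ly6g* at 0 in every mouse of that age, and to between 7.07 and 28.3 CPM at 19 months. The pituitary markers summed to at most 2.59 CPM and to between 21.6 and 113 CPM. Of 10 neuron markers, 7 and 6 were called lower and 1 higher in each genotype, with a median of -0.36 and -0.23. The part of these markers in the rise of the complement genes was not tested.

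V338Y mouse 14 of 3 months had the cerebellum markers at the level of the mice of 19 months. Its *C4b* was at 30.6 CPM, its *C3* at 1.42 CPM, its *C1qa* at 36.7 CPM and its *Serping1* at 4.92 CPM, all below every mouse of 19 months. It is a single mouse, and the part of the cerebellum markers in the changes with age was not tested. Without that mouse, 24 complement genes were again called higher with age in V338Y mice, and *Cd59a* was again called between the genotypes at 3 months (log2 -1.67, adjusted p = 0.00282, edgeR). All V338Y mice of 3 months left in that fit had high cerebellum markers, so its count with age cannot bear on the part of these markers.

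Set against the microglia markers of the same mouse, the members fell into separate patterns. The measure is the log2 CPM of a gene minus the mean log2 CPM of the 15 microglia markers, and its change with age is a difference on the log2 scale. The change was 0.36 to 0.43 for the 3 C1q chains in wild-type and 0.38 to 0.49 in V338Y mice, with no overlap between the ages. It was 2.87 and 2.56 for *C4b* and 3.18 and 3.07 for *C3* in wild-type and V338Y mice, also with no overlap. It was 0.96 and 0.49 for *Serping1* and 1.68 and 0.90 for *C3ar1*, without overlap, whereas *C5ar1* (1.12 and 0.95) overlapped in wild-type mice. *Cd59a* overlapped in both genotypes, with differences of -0.42 and 0.63. These values are a description, as a marker list stands for a cell type only in part.

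**Figure D4:**
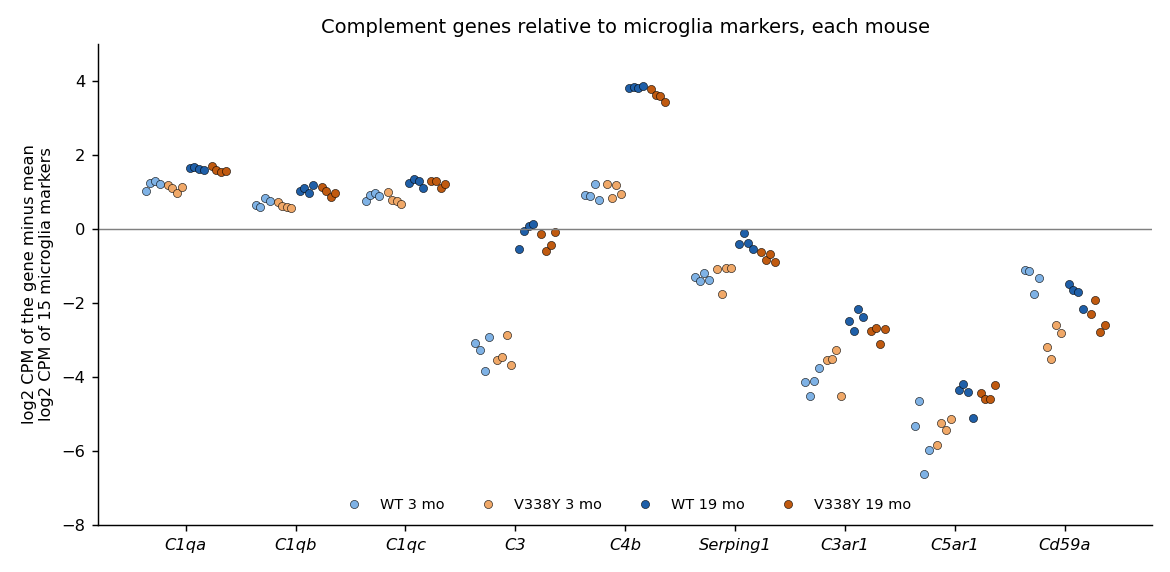
Log2 CPM of each member minus the mean log2 CPM of 15 microglia markers in the same mouse, one point per mouse in 4 groups. The C1q chains lie slightly higher at 19 than at 3 months, C4b and C3 lie higher by between 2.56 and 3.18, and the ages of Cd59a overlap.

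Between the genotypes at 3 months, *Cd59a* was the only complement gene called. It was lower in V338Y mice, at 24.5 ± 4.67 normalized counts against 84.5 ± 18.3 in wild-type mice (SD, n = 4), which is 3.45-fold lower (log2 -1.79 ± 0.21 SE, adjusted p = 0.00224, edgeR), and the genotypes did not overlap. Thus 1 of 8 members and 1 of 30 complement genes tested were called, beside 0.0616% of 16241 genes. *C5ar1* was below the count filter. The difference of the C1q chains was between -0.08 and -0.07 on the log2 scale, with 95% intervals from -0.31 to 0.17 over the 3 chains. It was 0.09 (-0.13 to 0.32) for *C4b*, 0.10 (-0.23 to 0.42) for *Serping1*, -0.15 (-0.72 to 0.43) for *C3* and 0.56 (-0.18 to 1.31) for *C3ar1*, and the intervals of *C3* and *C3ar1* are wide.

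At 19 months, 3 members were lower in V338Y mice, namely *Serping1*, *C4b* and *Cd59a*, beside 3.12% of 16420 genes called in either direction. *Serping1* was at 196 ± 20.1 normalized counts against 282 ± 34.3 in wild-type mice, 1.46-fold lower (log2 -0.55 ± 0.09 SE, adjusted p = 1.38e-04), with every V338Y mouse below every wild-type mouse. *C4b* was 1.26-fold lower (log2 -0.33 ± 0.06, adjusted p = 0.0135), also without overlap. *Cd59a* was 1.77-fold lower (log2 -0.82 ± 0.18, adjusted p = 0.0148), and its groups overlapped, as wild-type mouse 15 at 6.09 CPM lay below V338Y mouse 18 at 6.67 CPM. All p are from edgeR's quasi-likelihood test (n = 4 per group). Of these 3, only *Serping1* remained called whichever mouse was left out. *C4b* was not called without wild-type mouse 12 (adjusted p = 0.0511), 13 (0.0648) or 15 (0.0747) or V338Y mouse 19 (0.0751), and *Cd59a* not without wild-type mouse 13 (0.0782) or 14 (0.0543).

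The other members were also lower in V338Y mice at 19 months but were not called. The log2 difference was -0.16 for *C1qa* (95% interval -0.26 to -0.06, adjusted p = 0.0636), -0.19 for *C1qb* (-0.31 to -0.07, adjusted p = 0.0779) and -0.16 for *C1qc* (-0.27 to -0.04, adjusted p = 0.129). It was -0.50 for *C3ar1* (-0.83 to -0.16, adjusted p = 0.0972), whose genotypes did not overlap, -0.33 for *C3* (-0.78 to 0.12, adjusted p = 0.468) and -0.18 for *C5ar1* (-0.76 to 0.41, adjusted p = 0.827, edgeR). Without V338Y mouse 17, which had the highest C1q levels of its group, *C1qa* and *C1qb* were called (adjusted p = 0.00965 and 0.0165, edgeR). Leaving out the highest mouse of the lower group widens the difference. Neither gene was called in the other 7 of 8 fits with 1 mouse left out. Beyond the members, *Itgax* (log2 -0.67 ± 0.14 SE, adjusted p = 0.00453, edgeR) was lower in V338Y mice. Over the lists, 5 of 34 complement genes tested were called lower and 0 higher, beside 316 lower (1.92%) and 196 higher of all 16420 genes. The median log2 difference was -0.17 over these 34 genes and -0.33 over the 9 members, against -7.2e-04 over all genes.

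Markers of other cells moved in the same comparison. Of the microglia markers, 4 of 15 were called lower (median -0.09), of the meningeal fibroblast markers 3 of 9 lower and 1 higher (-0.27), of the astrocyte markers 2 of 10 lower (-0.10), of the border macrophage markers 1 of 7 lower (-0.32), of the neutrophil markers 1 of 5 lower (-0.89) and of the pituitary markers 2 of 4 lower (-2.33). Of the neuron markers 1 of 10 (0.04) and of the oligodendrocyte markers 1 of 8 (0.02) was called higher and 0 lower. None of 5 blood markers (median -0.50), 9 choroid plexus markers (0.59), 10 endothelial markers (-0.09) or 7 pericyte markers (-0.07) was called. Choroid plexus markers summed to between 159 and 2268 CPM in V338Y and between 220.4 and 997 CPM in wild-type mice of 19 months. Relative to the microglia markers of the same mouse, *Serping1* was at -0.54 to -0.11 in wild-type and -0.89 to -0.62 in V338Y mice and *C4b* at 3.80 to 3.86 and 3.43 to 3.78, with no overlap for either gene. The other members overlapped, among them *Cd59a* (-2.17 to -1.48 and -2.77 to -1.91) and *C3ar1* (-2.76 to -2.15 and -3.10 to -2.68). The part of any of these markers, those of microglia included, was not tested.

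Whether the change with age differed between the genotypes was tested through the interaction term of a joint fit to the 16 mice, which share the samples of the comparisons above. No complement gene of 35 tested was called, beside 0.0535% of 16831 genes. An unadjusted p under 0.05 (edgeR) was found for 9 of the 35, 4 of them members, beside 1723 of the 16831 genes. DESeq2 and the likelihood-ratio test of edgeR called 0 complement genes as well. The difference between the log2 changes with age (V338Y minus wild type) was -0.63 for *Serping1* (95% interval -0.99 to -0.26, adjusted p = 0.236), 0.99 for *Cd59a* (0.38 to 1.59, adjusted p = 0.244), -0.42 for *C4b* (-0.69 to -0.15, adjusted p = 0.27) and -1.06 for *C3ar1* (-1.81 to -0.30, adjusted p = 0.334, edgeR). Without V338Y mouse 14 of 3 months, *Serping1* was called, with a difference of -0.75 and an adjusted p of 0.0404 (edgeR). That mouse had the lowest *Serping1* of its group (4.92 against 6.02 to 7.35 CPM), so leaving it out widens the difference. *Serping1* was not called in the other 15 of 16 fits with 1 mouse left out. For the C1q chains it was between -0.11 and -0.07, with intervals from -0.37 to 0.20.

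Both members on chromosome 2, *Cd59a* and *Serping1*, share that chromosome with *Mrps5* (GRCm38, chr2:127587222-127606829). *Cd59a* lies 23.5 Mb and *Serping1* (chr2:84765387-84775444) 42.8 Mb from it. Close to *Mrps5*, genes were called more often between the genotypes than further away. Within 10 Mb, 7 of 226 genes (3.10%) were called at 3 months and 38 of 229 (16.6%) at 19 months. Between 10 and 20 Mb it was 0 of 81 and 4 of 81 (4.94%). Between 20 and 30 Mb it was 1 of 176, *Cd59a* itself, and 3 of 177 (1.69%), and between 30 and 50 Mb it was 0 of 259 and 7 of 265 (2.64%). Beyond 50 Mb it was 0 of 571 and 19 of 563 (3.37%). Of all genes tested, 0.0616% were called at 3 months and 3.12% at 19 months. None of the other genes tested within 2 Mb of *Cd59a*, 31 at 3 months and 30 at 19 months, was called. At the shares of all genes just given, so few genes would hold few calls or none. At 3 months 5 of the 31 had an unadjusted p under 0.05 (edgeR), beside 815 of all 16241 genes tested. At 19 months it was 4 of the 30, beside 2660 of 16420. Whether the position of either gene has a part in its difference was not tested.

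**Figure D5:**
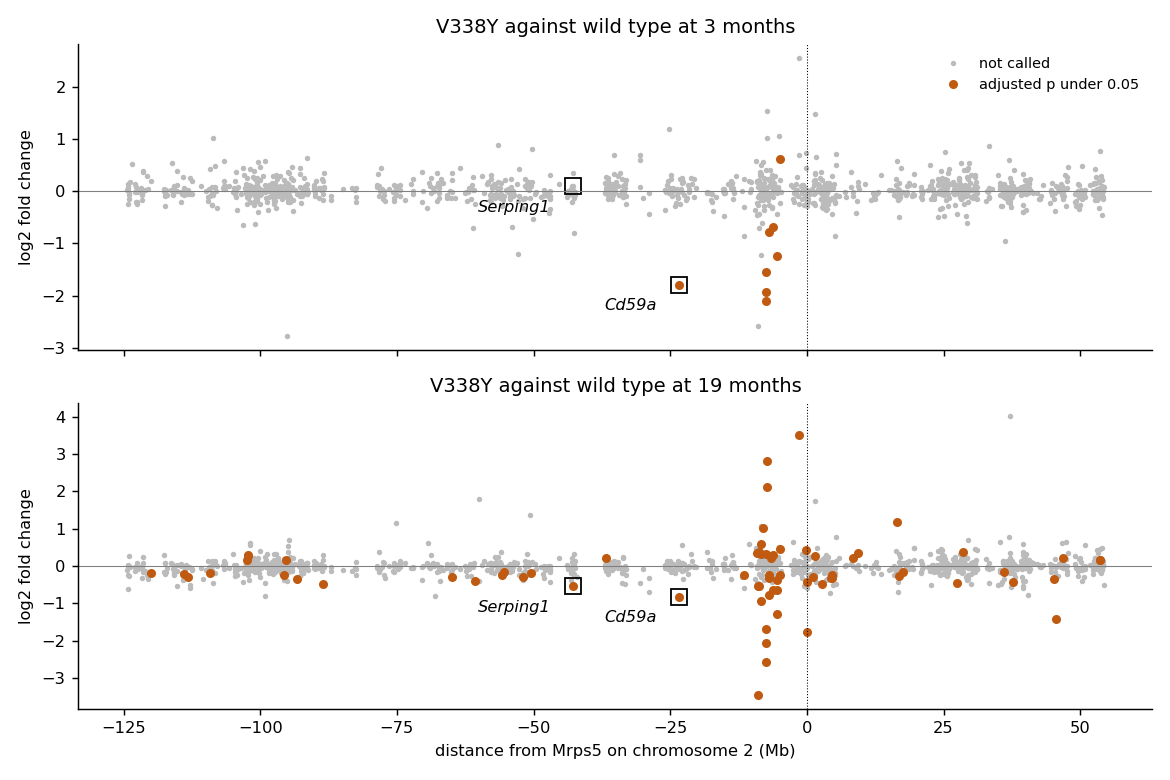
Log2 fold change between the genotypes (V338Y against wild type) of every tested gene of chromosome 2 against its distance from Mrps5 in Mb, at 3 months (top) and 19 months (bottom); orange points have an adjusted p under 0.05 and squares mark Cd59a and Serping1. Called genes gather within 10 Mb of Mrps5 at both ages. No gene tested within 2 Mb of Cd59a is called besides it, where few calls or none would be had at the share of all genes.

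*Cd59a* has a neighbouring copy, *Cd59b*, that ends 4.61 kb before it (GRCm38, chr2:104069849-104091187). *Cd59b* had 1 to 10 counts per mouse, and *Cd59a* took between 86.0% and 93.4% of their joint counts in the 4 groups. Only 3.87% of the 50-base windows of *Cd59a* are found in *Cd59b*. With the counts of both summed, as with those of *C4a* and *C4b*, 1 and 5 complement genes were called between the genotypes at 3 and 19 months, the same numbers as before.

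Within the groups, the C1q chains had the highest correlations from mouse to mouse. For the deviations of log2 CPM from the group mean over 16 mice, Pearson's r was 0.86 for *C1qa* and *C1qc*, 0.79 for *C1qa* and *C1qb* and 0.71 for *C1qb* and *C1qc*, and between -0.55 and 0.54 for the remaining pairs, which share libraries and depth. Over 15027 genes with a mean of at least 1 CPM, the gene whose deviations were most like those of a member was *P4hb* for *C1qa* (r = 0.94), *Gm22133* for *C1qb* (0.89), *Klhdc8b* for *C1qc* (0.90), *Wac* for *C3* (0.85) and *Apod* for *C4b* (0.87). It was *Shisa8* for *Serping1* (0.87), *Bank1* for *C3ar1* (0.83), *Ss18l2* for *C5ar1* (0.84) and *Lamp2* for *Cd59a* (0.89). No member was among the 3 most alike genes of another member. High values are to be had by searching so many genes over 16 mice, so they are given as a description only.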

How the data were processed

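RNA of 16 mice was sequenced in 4 groups of 4, taken from the labels. The authors deposited estimated counts per gene without normalization. The paper names RSEM, Ensembl 75 and GRCm37, whereas the submitters' processing notes name bcl2fastq 1.8.4, STAR 2.4.2a, featureCounts and GRCm38, so how reads shared by similar genes were assigned is not settled. The labels give brain as the tissue and describe RNA extraction from muscle, whereas the paper describes cortex. The values were whole numbers, and the 1495 values with 5 or more digits all ended in 0. Symbols (37607 of 39179 identifiers) come from a list of gene names. Positions (37693 identifiers) and exon lengths come from GENCODE M21 (GRCm38). Both were matched by identifier. Promoters come from RefSeq (GRCm38.p6) and were found for 7 genes, namely *C1qb*, *C1qc*, *C3*, *C3ar1*, *C5ar1*, *Cd59a* and the copy *Cd59b*. The copy *C4a* had no entry.

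A gene was kept when 50% or more of the mice in either group had 10 counts or more, separately for each comparison of 8 mice. Counts were normalized with TMM and tested with the robust quasi-likelihood test of edgeR 4.0.16 (R 4.3.3), with Benjamini-Hochberg adjustment over all genes kept. Standard errors were taken from the test statistic, and 95% intervals use its degrees of freedom. Log2 CPM used a prior count of 2. Beyond the mouse number, the sample titles end in Br for all mice of 3 months and in Br-N for all mice of 19 months. The titles do not explain the N. Simulated counts in which 200 genes changed were used as a test of the steps, and 2-fold changes were called in 74% to 89% and 1.5-fold changes in 48% to 76% of cases over the comparisons (74% and 48% in the interaction, 89% and 76% between the genotypes at 19 months), with 0 wrong signs. Of the genes called, 2.94% to 7.84% had not been changed.

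The members and lists were chosen with earlier results of these data known. Genes named besides the members were those of the complement lists called between the genotypes or in the interaction, the 8 with the largest change with age among those called with a mean of 50 or more normalized counts in one group, the copies *C4a* and *Cd59b*, and for each member the 3 genes most alike, of which the first is given. One gene that this rule names is not reported here. Alternatives were DESeq2 1.42.0, the likelihood-ratio test, RLE size factors, library size only, 2 other filters, all 16 mice in one fit, copies summed, each mouse left out and, chosen after seeing the data, the adjusted p of 1e-05 that the study used for age.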

Additional observations from a re-analysis of the deposited data

Results flagged for a closer look

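In one of 36 sets of 4 mice (9 members in 4 groups), a single mouse lay far from the others by Dixon's criterion. *C3ar1* in V338Y mouse 19 of 19 months had a log2 CPM of 1.64 (2.96 CPM), against 2.004 to 2.045 (3.86 to 3.98 CPM) in the other mice of its group. The gap was 0.898 of the range of the group, above the 95% critical value for 4 samples. Chance alone gives about 1 such set in 20. Without that mouse the difference of *C3ar1* between the genotypes at 19 months was not called either.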

How the results depend on the processing

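All 9 members remained called higher with age in both genotypes under each alternative in which they could be tested other than the stricter adjusted p of 1e-05, which *Cd59a* and *C5ar1* in wild-type mice and these and *C3ar1* in V338Y mice did not pass, and the calls of *Cd59a* at 3 months and *Serping1* at 19 months between the genotypes held under all alternatives. The counts of complement genes called moved as follows. In V338Y mice 13 were called with age at an adjusted p under 1e-05, against 24. At 19 months, 3 instead of 5 were called between the genotypes with library size only (*Serping1*, *Cd59a* and *Itgax*) and 2 with all 16 mice in one fit (*Serping1* and *Cd59a*), and 2 to 7 with each mouse left out in turn, the lowest without wild-type mouse 13. The interaction gave 0 to 1, and the 1 appeared without V338Y mouse 14 of 3 months. *C4b* at 19 months was not called with library size only (adjusted p = 0.0559) or all 16 mice in one fit (0.0721), and *C1qb* was called without a filter on counts (0.0352). In wild-type mice *Masp2*, named after its values were seen, was called lower with age in the likelihood-ratio test, with library size only and without wild-type mouse 10 of 3 months.

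Signs turned only for differences that were not called. Over the mice left out, the log2 difference between the genotypes at 3 months was -0.13 to 0.028 for *C1qa*, -0.13 to 0.00998 for *C1qb* and -0.15 to 0.024 for *C1qc*, above 0 only without V338Y mouse 15. In the interaction it was -1.30 to 0.16 for *C5ar1*, above 0 without wild-type mouse 11 or 12 of 3 months (0.16 and 0.027), and -0.18 to 0.013 for *C1qc*, above 0 without V338Y mouse 13 of 3 months.

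Over all genes, the count called between the genotypes at 19 months was 512, against 120 with all 16 mice in one fit, 791 without a filter, 294 without wild-type mouse 13 and 287 without V338Y mouse 19, and with library size only it was 357 higher of 620 instead of 196 of 512. At 3 months it was 10, against 26 with DESeq2 and with the likelihood-ratio test, 23 with all 16 mice and 20 without a filter. In the interaction it was 9, against 43, 35 and 32 with DESeq2, the likelihood-ratio test and no filter and 57 without V338Y mouse 14. With library size only, 4175 of 10496 genes called with age in wild-type mice were higher instead of 5050 of 10115. The causes were not tested.

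No paired analysis was possible because the numbers in the labels name single mice, and the groups compared share at most 1 number. Depth limits *C5ar1*, with 0 to 21 counts per mouse, *C3ar1*, *Itgax* at 3 months and *Cd59b*. Age cannot be told apart from sex or from whatever the ending of the sample titles stands for. The level of the cerebellum markers also went with age in all mice but V338Y mouse 14 of 3 months.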
